A study of Mus musculus with 2 samples.

Results

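The cells described here are macrophages of a mouse lung with a high burden of mammary carcinoma metastases that contained transcripts of the complement component C1q and no transcript of arginase 1 (Arg1). They were chosen by measured values in 1 single-cell RNA-sequencing library. A member had to hold at least 15 C1qa, C1qb and C1qc unique molecular identifiers (UMIs, each counting 1 captured transcript) per 10000 UMIs of the cell, fewer than 6 per 10000 of the carcinoma-cell genes Cdkn2a, Sox9, Twist1, Hmga2 and Fosl1, and 0 UMIs of Arg1. This gate selected 690 of the 3033 high-burden cells that passed the cell filter (1000 to 7000 genes and up to 10% mitochondrial UMIs), 22.8% (95% interval 21.3 to 24.3), out of 5506 such cells in both libraries. Because the levels of these genes chose the members, the difference of the members from other cells in C1q or Arg1 is a description and carries no test.

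Both libraries came from whole dissociated lungs of female FVB/NJ mice whose tail veins had been injected, at 10 weeks of age, with Met-1, a carcinoma line derived from an MMTV-PyMT mouse mammary tumor. The low-burden library was from 1 mouse taken at week 1 and the high-burden library from 1 mouse taken at week 3, and the labels place both in the same batch. No uninjected lung was analysed here, so both groups carry the injected cells. With 1 mouse per group, metastatic burden, week, the mouse's age, sequencing depth and mouse cannot be told apart in any comparison between libraries. No difference has a replicate check, and all intervals are 95% intervals that cover counting error only.

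C1qa, C1qb and C1qc encode the chains of C1q, which starts the classical complement pathway and labels dying cells and debris for uptake. Macrophages are the main source of C1q in tissues, and lung macrophages with C1q are known chiefly from the interstitium and from tumors, apart from the alveolar macrophages of the airspace, which contain little of it. Arg1 encodes the enzyme that splits arginine, and together with genes such as Retnla and Mrc1 it is a common marker of alternatively activated macrophages. Major histocompatibility complex (MHC) class II molecules on macrophages present peptides to CD4 T cells, and interferon gamma is a strong inducer of both class II genes and the chemokine Cxcl9.

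The low-burden library held 2668 cell barcodes with 14041471 UMIs and a median of 3971 per barcode, and the high-burden library 3121 barcodes with 52723173 UMIs and a median of 13795. Of the kept high-burden cells, 1465 held carcinoma genes at or above the limit (the carcinoma gate) and 1568 did not. The libraries shared 11 barcode sequences, 3 of them in members. Barcodes that met the gate but failed the cell filter numbered 7 in the high-burden library and 0 in the low-burden library.

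The members made up 44.0% (41.5 to 46.5) of the 1568 high-burden cells outside the carcinoma gate. The same gate selected 62 of 2453 such low-burden cells, 2.53% (1.94 to 3.23). The high-burden share was thus far above the low-burden share, beyond counting error, although cell recovery from the dissociated lung sets such shares too and its part was not tested. The remaining high-burden C1q cells, 132 of 822, held at least 1 Arg1 UMI and are called Arg1-positive below. Members had a median of 10379 UMIs per cell (5219 to 28514), the Arg1-positive cells 11364, and the low-burden cells of the same gate 4075.5, of which 8 had too few UMIs to be thinned to 3000.

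**Figure D1:**
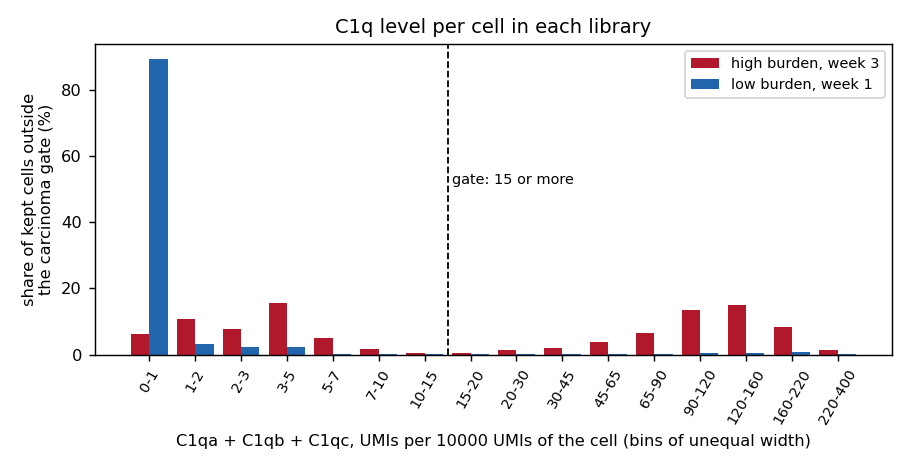
Share of kept cells outside the carcinoma gate (y axis, %) by their summed C1qa, C1qb and C1qc UMIs per 10000 UMIs of the cell (x axis, bins of unequal width), in the high-burden (red) and the low-burden (blue) library. The dashed line is the gate at 15, which lies in a sparsely filled range: 6 members fell between 15 and 20, and 7 high-burden cells without Arg1 between 10 and 15.

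The C1q level of the members spread over a broad peak well above the gate, with a median of 122.2 per 10000 UMIs and quartiles of 91.8 and 153.1. Few cells lay near the gate. The 6 members between 15 and 20 held Ms4a7 at 15.8 CPM (UMIs of the gene per 1000000 UMIs summed over the cells) and the 7 cells just outside it at 59.98 CPM, while the endothelial gene Cldn5 stood at 31.6 CPM in the former and 559.8 CPM in the latter. Cx3cr1 (63.1 against 180 CPM) and Csf1r (126.2 against 199.9 CPM) were also lower inside the gate. Ccl12 (205.1 against 20.0 CPM), Lyz2 and Apoe were higher inside it. With so few cells, the Ms4a7 and Cx3cr1 levels rest on few UMIs. The carcinoma-gene limit left out 16 further C1q cells without Arg1.

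The label was checked against its markers. C1qa (chr4:136895917-136898803, minus strand, GRCm38) stood at 4667 CPM (4618 to 4716) in the members, C1qb (chr4:136880129-136886187, minus strand) at 3665 CPM and C1qc (chr4:136889804-136893065, minus strand) at 3690 CPM. The 3 genes lie next to each other on chromosome 4, and in cells thinned to 3000 UMIs each was found in at least 99.28% of members. The markers that the gate did not use were Ccl12 (chr11:82101845-82103400, plus strand), a monocyte-attracting chemokine, at 1492 CPM, the fractalkine receptor gene Cx3cr1 (chr9:119901616-120069879, minus strand) at 513.0 CPM, and the tetraspan membrane gene Ms4a7 (chr19:11321039-11336146, minus strand) at 391.5 CPM. Lymphocytes of the same library, 70 cells whose median depth was 6800.5 UMIs and which should lack these genes, gave 126.1 CPM for C1qa, 16.4 CPM for Ccl12, 14.6 CPM for Cx3cr1 and 16.4 CPM for Ms4a7, a measure of free RNA in the droplets. After thinning to 3000 UMIs, Ccl12 was found in 64.9% of members, Cx3cr1 in 62.9% and Ms4a7 in 42.0%.

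All 8 general macrophage markers examined, among them Csf1r at 424.1 CPM (the receptor for the macrophage growth factor), Cd68, Lyz2 and Adgre1, were each seen in at least 25% of members. Of 12 alveolar macrophage markers none reached that share, and Cidec was at 0. Among markers of other cell types, T cell markers summed to 39.2 CPM, NK cell markers to 24.6 CPM and B cell markers to 15.0 CPM. Dendritic cell markers summed to 66.0 CPM, endothelial markers to 168.1 CPM and fibroblast and mural markers to 159.9 CPM. Neutrophil markers summed to 271.6 CPM, with 2 of 8 seen in at least 25% of members, although Ly6g was at 0. Classical monocyte markers summed to 787.2 CPM, with 2 of 9 seen in at least that share. Lymphocytes held 771.2 and 994.2 CPM of these last 2 lists. Alveolar epithelial markers summed to 2623 CPM, chiefly the club cell gene Scgb1a1 at 1412 CPM and the surfactant gene Sftpc at 1047 CPM, against 2299 CPM in the Arg1-positive and 9258 CPM in the low-burden cells. One member alone held 1295 Sftpc UMIs among its 9060 UMIs, 16.3% of all Sftpc UMIs of the members, whose median was 7. Lymphocyte or endothelial genes reached the gates of those cells in 17 members, which were kept.

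Among the other complement genes in the members, properdin (Cfp), which stabilises the alternative pathway convertase, stood at 310.3 CPM, the anaphylatoxin receptors C5ar1 and C3ar1 at 246.1 and 128.0 CPM, C4b at 69.6 CPM and the complement receptor gene Vsig4 at 16.7 CPM. Every member held Ctsb and Ctss, which encode lysosomal cathepsins, at 1354 and 2584 CPM. Receptors for antibodies and debris were well represented, with Fcgr3 at 626.3 CPM, the high-affinity IgG receptor gene Fcgr1 at 276.2 CPM in 81.6% of cells, the lipid and apoptotic cell receptor gene Trem2 at 351.5 CPM and the scavenger receptor gene Msr1 at 252.8 CPM. The scavenger receptor gene Cd163 was near the floor, at 2.24 CPM in 1.45% of cells. Monocyte-attracting chemokines were abundant besides Ccl12, with Ccl2 at 877.7 CPM, Ccl4 at 841.3 CPM and Ccl7 at 804.0 CPM, against 16.4 to 76.8 CPM in lymphocytes. The apolipoprotein gene Apoe stood at 6108 CPM and was in 99.6% of cells. The members also contained osteopontin (Spp1) at 1553 CPM, but lymphocytes held it at 654.3 CPM and carcinoma cells at 7396 CPM, and the part of free RNA in the members' level was not tested.

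Members differed most from each other in a few genes. In cells thinned to 3000 UMIs, the variance of 5488 genes was compared with their mean, for which Poisson counting alone gives a ratio near 1, and the median ratio was 1.04. Sftpc led with 137.7, and the single cell above gave 460 of its thinned UMIs, while the mean over members was 3.35. The acute-phase gene Saa3 (chr7:46711998-46715700, minus strand) followed with 75.02, then Retnla, an alternative activation gene, with 40.5, and the protease inhibitor gene Slpi with 40.3. The class II invariant chain gene Cd74 came next with 39.2, Apoe with 37.0 and the chemokine gene Ccl8 with 25.7. Saa3 was in 27.8% of thinned members and reached 185 UMIs in 1 cell, whereas Cd74 was in 95.8% with a median of 39.0 UMIs. Wfdc17, Lyz2, Ftl1, Fth1, H2-Ab1, Ccl6, H2-Aa and Ccl5 completed the 15 highest, with ratios from 16.2 to 24.2.

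Clustering of the members alone, without the genes of the gate, gave 7 groups of 26 to 197 cells. Since these groups were made from the genes that describe them, the values below describe them and test nothing, and the groups are not named as cell types. The number of groups changed with the clustering resolution, from 6 to 10.

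Group 1 (197 cells) had weak leading genes, with the DNA repair gene Ung at 36.2 CPM, and held the highest Ccl12 level, 2170 CPM. Group 2 (162 cells) was led by mitotic genes, with topoisomerase gene Top2a at 371.0 CPM and Mki67 at 176.5 CPM, and contained 72.5% of the members' Top2a UMIs. Its median depth, 13370 UMIs, was the highest of the groups. Group 3 (141 cells) carried the chemokine gene Cxcl9 (chr5:92321347-92328079, minus strand) at 1035 CPM, Ccl5 at 533.7 CPM, the guanylate-binding protein gene Gbp2b at 239.9 CPM and the checkpoint ligand gene Cd274 at 45.6 CPM. It also held the highest class II levels, with H2-Aa at 11830 CPM and the class II transactivator gene Ciita at 53.8 CPM, and 63.2% of the members' Cxcl9 UMIs. Cxcl9 and class II genes were thus high in the same 141 cells.

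Group 4 (90 cells), like group 6 below, was the opposite in class II, with H2-Aa at 1176 CPM and Ciita at 2.02 CPM. It was led by the folate receptor gene Folr2 at 139.2 CPM, coagulation factor gene F13a1 at 183.5 CPM, Gas6, which bridges dying cells to their receptors, at 255.1 CPM, and Fcrls at 589.9 CPM, and its mannose receptor gene Mrc1 level, 270.2 CPM, was the highest of the groups. Group 5 (39 cells) carried lysosome and lipid genes, with Gpnmb at 438.7 CPM, the fatty acid binding gene Fabp5 at 4178 CPM, cathepsin gene Ctsd at 5078 CPM and the cholesterol exporter gene Abcg1 at 156.3 CPM. Apoe reached 20040 CPM there and the lysosomal list summed to 40200 CPM, against 12450 to 19930 CPM in the other groups. These 39 cells included the member with 1295 Sftpc UMIs, and their epithelial markers summed to 6084 CPM. The 10 leading genes of group 5 summed to 10800 CPM there and to 6790 CPM in low-burden alveolar macrophages. Alveolar macrophage markers, however, summed to 315.3 CPM in group 5 and 21120 CPM in those macrophages. In group 5, Ccl12 (241.3 CPM) and Cx3cr1 (87.7 CPM) were below their levels over all members, while Ms4a7, at 907.5 CPM, was the highest of the groups. Whether group 5 is related to alveolar macrophages was not tested.

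Group 6 (35 cells) went against the label. Its Ms4a7 and Cx3cr1 levels were both 12.3 CPM and its Ccl12 level was 55.4 CPM, near the levels in lymphocytes for the first 2 genes, although C1qa stood at 3230 CPM. It was led by Saa3 at 15160 CPM, the lipoxygenase gene Alox15 at 698.3 CPM, the lubricin gene Prg4 at 1061 CPM and Serpinb2 at 372.2 CPM, with the scavenger receptor gene Marco at 1366 CPM, Vsig4 at 353.8 CPM and Retnla at 2421 CPM. These 5.07% of the members held 88.1% of their Saa3 UMIs, 92.3% of their Alox15 UMIs and 76.7% of their Retnla UMIs. The class II list summed to 4239 CPM in group 6, below the 6212 CPM of group 4. Group 7 (26 cells) was led by genes of other cell types, with the collagen gene Col3a1 at 718.6 CPM and the endothelial genes Cldn5 and Ptprb at 580.1 and 204.9 CPM, and its C1q median, 62.3 per 10000, was the lowest.

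**Figure D2:**
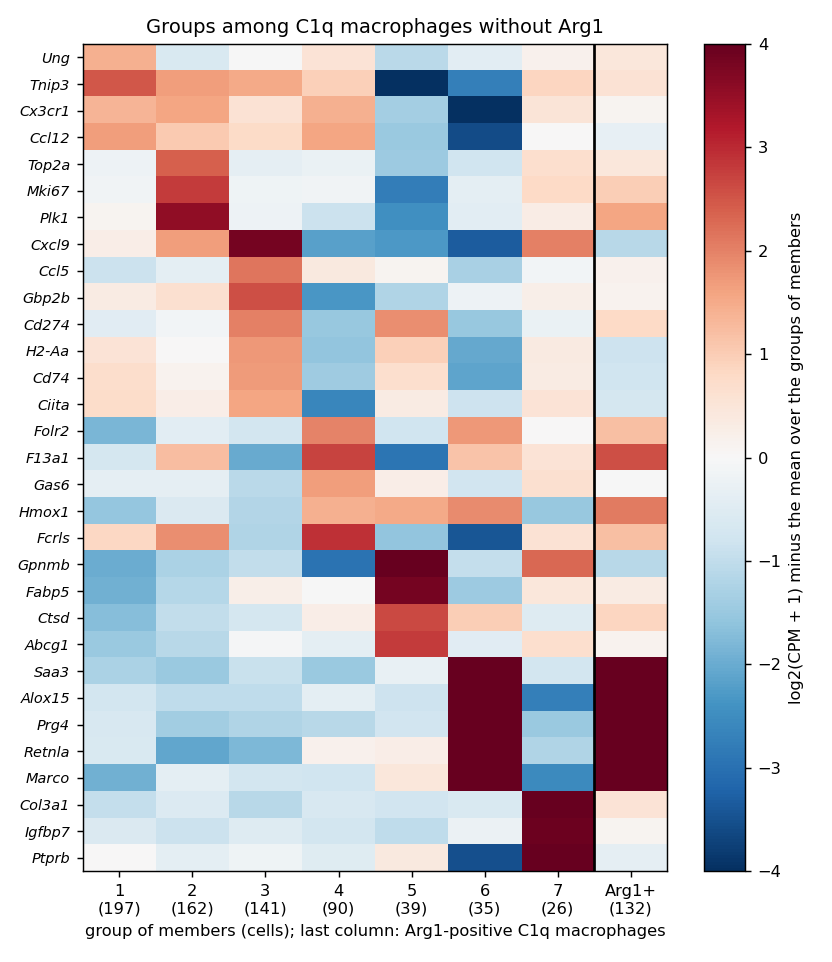
Levels of leading genes (rows) in the 7 groups of members (columns, number of cells in parentheses) and in the Arg1-positive C1q macrophages (last column), as log2(CPM + 1) minus the mean over the 7 groups, with the color scale ending at -4 and 4. Saa3, Alox15, Prg4, Retnla and Marco are high in group 6 and in the Arg1-positive cells, Cxcl9 and class II genes in group 3, and Gpnmb, Fabp5 and Ctsd in group 5.

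Members and Arg1-positive cells came from the same mouse and library, so week and handling were shared, while the median depth was 10379 UMIs in the former and 11364 in the latter. This comparison asks what else went with Arg1 in C1q macrophages. Of 7629 genes past the filter (50 UMIs over both sums and 10% of cells of either), 183 were at least 2-fold higher in the members, 2.4%, and 241 at least 2-fold lower, 3.16%. With at least 10 UMIs and no limit on the share of cells the balance turned, to 821 higher and 571 lower. The chemokine gene Cxcl9 led the higher genes, at 287.9 CPM in the members and 32.3 CPM in the Arg1-positive cells, a log2 ratio of 3.15 (2.75 to 3.59). It was followed by the DNase gene Dnase1l3 at 38.7 against 4.53 CPM, Zmynd15 at 52.3 against 6.46 CPM and Clec4b1 and Slco2b1, each with 3 UMIs in the Arg1-positive cells and a log2 ratio of 3.00 (1.42 to 5.30). Klrb1b, Sh2d1b1, Asb2, the lipoprotein lipase gene Lpl and Tlr12 completed the 10 highest, with log2 ratios from 2.18 to 2.69.

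Lower in the members were the genes of group 6. Saa3 stood at 735.7 CPM in the members and 10110 CPM in the Arg1-positive cells, a log2 ratio of -3.78 (-3.83 to -3.74). The macrophage apoptosis inhibitor gene Cd5l stood at 26.6 against 429.8 CPM, Alox15 at 32.3 against 443.4 CPM and Retnla at 134.9 against 1488 CPM. The cytokine gene Il6 stood at 13.3 against 142.8 CPM. AC168977.1, Aspa, Serpinb2 and Selp had log2 ratios from -4.07 to -3.46, and Arg1 itself (chr10:24915221-24927484, minus strand), which defined the groups, was at 0 against 523.6 CPM.

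The MHC class II list stood out by its counts. All 10 of its genes past the filter were higher in the members, against 4302 of 7629 over all genes. Of the 10, 6 were at least 2-fold higher, and the median log2 ratio was 1.31 against 0.06 over all genes. H2-Aa (chr17:34282744-34287823, minus strand), a class II alpha chain gene, stood at 5235 CPM in the members and 2013 CPM in the Arg1-positive cells, a log2 ratio of 1.38 (1.33 to 1.43). The invariant chain gene Cd74 stood at 14250 against 5418 CPM, H2-DMb1, which helps load peptides, at 447.4 against 185.5 CPM, and Ciita at 26.3 against 10.3 CPM. In lymphocytes, which include B cells, H2-Aa was at 2197 CPM, near the 2013 CPM of the Arg1-positive cells. The lymphocyte gate does not stand for all cells outside the C1q gate, and the part of free RNA in these levels was not tested.

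The stretches just upstream of 3 class II genes are shown because these genes moved together, and class II promoters are known to share a Y box, a CCAAT-type element bound by NF-Y, next to X boxes bound by the RFX complex that recruits the protein made from Ciita. Each is the 100 bases before the RefSeq start on GRCm38.p6, read along the gene, with capitals marking the letters ATTGG or, on the other strand, CCAAT.
H2-Aa: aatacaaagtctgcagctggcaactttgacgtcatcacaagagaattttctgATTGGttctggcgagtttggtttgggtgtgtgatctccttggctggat
H2-DMb1: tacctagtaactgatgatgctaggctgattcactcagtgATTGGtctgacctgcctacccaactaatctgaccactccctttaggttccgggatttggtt
H2-Eb1: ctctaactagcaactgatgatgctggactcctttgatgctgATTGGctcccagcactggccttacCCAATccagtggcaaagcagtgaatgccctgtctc
They lie at chr17:34287824-34287923 (minus strand), chr17:34153091-34153190 (plus strand) and chr17:34305767-34305866 (plus strand). Of 10 class II genes looked up among the RefSeq promoters, 7 were matched, with 8 entries, and 6 of these held ATTGG on the gene strand in the 100 bases before the start, against 10.4% of all 32851 promoters. On either strand of the full 300-base promoters 37.4% held the letters. A match describes the letters and not a bound site.

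Receptors for chemokines and growth factors were higher in the members in 12 of 14 cases, against 4302 of 7629 over all genes, with 2 at least 2-fold. Cx3cr1 stood at 513.0 against 245.6 CPM in the Arg1-positive cells, a log2 ratio of 1.06 (0.91 to 1.22), and Ccr2, the receptor through which monocytes leave the marrow, at 169.1 against 84.0 CPM. Chemokines split, with 3 of 19 at least 2-fold higher and 5 at least 2-fold lower. Ccl12 stood at 1492 against 533.9 CPM and Cxcl10 at 277.3 against 118.9 CPM, while platelet factor 4 (Pf4) stood at 759.0 against 1725 CPM and Ccl6 at 638.8 against 2707 CPM. The inflammatory cytokine gene Tnf stood at 131.2 against 38.1 CPM and the transcription factor gene Irf8 at 241.1 against 113.1 CPM, but Il1b was alike, at 368.2 and 369.7 CPM, and the inflammatory list had 1 of 12 genes at least 2-fold higher and 1 lower.

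Of 19 repair and matrix genes 7 were at least 2-fold lower in the members and 2 higher. Fibronectin (Fn1) stood at 489.8 against 2258 CPM, a log2 ratio of -2.21 (-2.27 to -2.14), F13a1 at 52.9 against 168.7 CPM and the thrombospondin gene Thbs1 at 32.6 against 68.5 CPM. All 8 iron and heme genes were lower, against 3327 of 7629 over all genes, and 2 of them at least 2-fold. Heme oxygenase 1 (Hmox1) stood at 288.0 against 1201 CPM and transferrin (Trf) at 269.9 against 680.0 CPM. Of 16 complement genes 4 were at least 2-fold lower and none higher, with C4b at 69.6 against 391.7 CPM, Cfp at 310.3 against 873.2 CPM and Vsig4 at 16.7 against 128.6 CPM. The alternative activation list did not move as a block, with 3 of 11 genes at least 2-fold lower. Arg1, whose difference the gate fixed, was among these. Mrc1 stood at 115.7 against 113.8 CPM, a log2 ratio of 0.02 (-0.21 to 0.27).

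The remaining lists had at most 3 such genes in either direction. At least 2-fold higher were 1 of 12 interferon, 1 of 16 lipid, 1 of 16 transcription factor and 1 of 10 T cell regulation genes, and at least 2-fold lower were 3 of 18 phagocytic, 1 of 22 lysosomal, 1 of 18 glycolysis, 2 of 16 lipid, 1 of 16 transcription factor and 1 of 10 T cell regulation genes. All 16 cell division genes were somewhat higher in the members, against 4302 of 7629 over all genes, none by 2-fold, with a median of 0.47. Both phosphodiesterase 4 genes that passed, of 4 listed, were lower, with a median of -0.58.

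Cells with few Arg1 UMIs lay between the extremes for several genes. From 0 through 1 and 2 to 4 to 5 or more Arg1 UMIs (690, 40, 36 and 56 cells), Ccl12 ran from 1492 through 867.8 and 460.0 to 348.6 CPM, and Cx3cr1 from 513.0 through 344.5 and 212.9 to 197.3 CPM. Saa3 ran the other way, from 735.7 through 7086 and 7960 to 13500 CPM. Cxcl9 dropped already at 1 Arg1 UMI, from 287.9 to 34.5 CPM, and H2-Aa from 5235 to 2250 CPM. A cell with 0 Arg1 UMIs may still contain the transcript below the depth of these libraries. The Arg1-positive cells of the library held 810 Arg1 UMIs in all, with a median of 3.

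Cells with the Saa3 program took a larger share of the Arg1-positive cells than of the members. The 10 leading genes of group 6 together reached 10 per 10000 UMIs in 37 of 690 members and in 59 of 132 Arg1-positive cells. In the low-burden gate, whose cells also held no Arg1 UMI, 7 of 62 cells (11.3%) reached it. Without the 37 members and the 59 Arg1-positive cells (an alternative chosen after seeing the data), 180 genes were at least 2-fold higher in the members and 105 lower. The class II median was then 0.91, and the log2 ratio was 1.03 for H2-Aa and 2.62 for Cxcl9. Cd74 was at 0.97 and Tnf at 1.29. Hmox1 stayed lower with -2.63, F13a1 with -2.23, Il6 with -1.72, Fn1 with -1.47 and Ccl6 with -1.33. Genes that had picked the cells left out, such as Saa3, Cd5l and Alox15, lose their difference by construction and are not read here. Below 2-fold were then Pf4 at -0.35, Cfp at -0.57, Thbs1 at -0.32, Trf at -0.70, Ccl12 at 0.81 and both Cx3cr1 and Ccr2 at 0.36. Retnla, C4b and Marco changed sign, to 0.35, 0.23 and 0.28. Group 6 held 76.7%, 54.6% and 83.6% of the members' UMIs of these genes, so their change is partly by construction.

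The same gate in the low-burden lung asks how C1q macrophages without Arg1 compared between week 1 and week 3. Of 7302 genes past the filter, 1033 were at least 2-fold higher in the high-burden members, 14.1%, and 845 at least 2-fold lower, 11.6%. With at least 10 UMIs and no limit on the share of cells the balance turned, to 1213 higher and 3137 lower. The low-burden sum held 313014 UMIs from 62 cells against 7606513 from 690, so 1 low-burden UMI was worth 3.2 CPM and low genes there are imprecise. High-burden cells alone could carry a gene past the filter, so the counts over all genes and over the lists below are a description. With at least 300 UMIs over both sums (a filter chosen after seeing the data), 448 genes were higher and 199 lower of 3090. C1q itself was close, with C1qa at 4667 and 5517 CPM, C1qb at 3665 and 3307 CPM and Ms4a7 at 391.5 and 466.4 CPM in the high- and low-burden cells.

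Among the higher genes, Cxcl10, an interferon-induced chemokine gene, stood at 277.3 CPM in the high-burden members against 1 UMI in the low-burden cells, a log2 ratio of 6.44 (3.96 to 11.7). Cxcl9 had 2190 UMIs in the members and 0 in the low-burden cells, which is a log2 ratio of at least 4.91 against the limit of 3 UMIs over the group. Mitotic genes made up most of the rest of the 10 highest: Birc5, Ube2c, Top2a, Cdk1 and Cdca8, each with 1 low-burden UMI, and Cks1b and 2810417H13Rik, each with 2, followed by Ms4a4c with 1. Their high over low ratio in lymphocytes, which measure free RNA and lymphocyte changes together, was 1.64 on the log2 scale for Birc5 and 1.39 for Top2a, against 5.99 and 5.55 in the gate. In endothelial cells it was 6.29 and 5.43, close to the values in the gate, and the part of free RNA was not tested.

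Interferon response genes were higher in the high-burden members in 12 of 12 cases, against 3884 of 7302 over all genes. Of the 12, 9 were at least 2-fold higher, and the median log2 ratio was 2.22 against 0.07 over all genes. These are the 12 that passed the filter, which high-burden cells alone could meet. The median was 0.90 with at least 10 UMIs and no limit on the share of cells, and 1.71 without cells at the lymphocyte or endothelial gate (chosen after seeing the data). The guanylate-binding protein gene Gbp2 stood at 117.1 against 16.0 CPM, a log2 ratio of 2.87 (1.65 to 4.50), the ubiquitin-like modifier gene Isg15 at 98.6 against 19.2 CPM and the transcription factor gene Irf7 at 64.4 against 6.39 CPM. In lymphocytes the corresponding high over low log2 ratios were 0.08 for Gbp2 and 0.39 for Irf7. For Gbp2 and Irf7, 2 of the 12 genes, the log2 ratio was larger in the C1q cells than in the lymphocytes of the same libraries. Both low-burden levels in the gate rest on few UMIs, and no test of that difference was made. The lymphocyte ratios of the other listed genes and the endothelial ratios of Gbp2 and Irf7 are not reported here. For the interferon-induced gene Cxcl10 the log2 ratio was 1.15 in lymphocytes and 4.34 in endothelial cells, against 6.44 in the gate. All of these Cxcl10 values rest on few low-burden UMIs, and the part of free RNA was not tested.

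Chemokines were at least 2-fold higher in 9 of 19 cases and at least 2-fold lower in 3. Ccl12 stood at 1492 against 367.4 CPM, a log2 ratio of 2.02 (1.76 to 2.30), Ccl7 at 804.0 against 175.7 CPM, Ccl8 at 284.5 against 54.3 CPM and Ccl4 at 841.3 against 105.4 CPM. Tnf stood at 131.2 against 25.6 CPM. In the other direction, Cxcl13, which attracts B cells, stood at 27.1 against 530.3 CPM, Ccl24 at 16.6 against 182.1 CPM and Pf4 at 759.0 against 2169 CPM. Fc and scavenger receptors diverged, with Fcgr1 at 276.2 against 63.9 CPM, Msr1 at 252.8 against 63.9 CPM, and Fcgr4 at 94.1 CPM against 0 UMIs, a log2 ratio of at least 3.30, and over the phagocytic receptor list 5 of 19 genes were at least 2-fold higher and 8 lower.

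Genes of resident and alternatively activated macrophages were lower in the high-burden members. In the alternative activation list 8 of 11 genes were at least 2-fold lower and 1 higher, with a median of -2.40. Mrc1 stood at 115.7 against 399.3 CPM, a log2 ratio of -1.79 (-2.06 to -1.51), Folr2 at 38.9 against 223.6 CPM, the lectin genes Mgl2 and Clec10a at 72.7 against 498.4 and 62.1 against 204.5 CPM, the hyaluronan receptor gene Lyve1 at 6.84 against 70.3 CPM and the transcription factor gene Klf4 at 90.3 against 476.0 CPM. The lowest ratios belonged to the lectin genes Cd209f, with 2 UMIs against 63, and Cd209a, with 17 against 97, and the gelatinase gene Mmp9, with 7 against 65. Pla2g2d, Fxyd2, Hpgd, Retnla and Sult1a1 were also among the 10 lowest. Part of these levels came from few cells. A single low-burden cell held 33.3% of the Cd209f UMIs there, 34.0% for Cd209a, 30.1% for Retnla and 18.5% for Mmp9. Retnla was seen in 19.6% of the members and 21.0% of the low-burden cells. Dendritic cell markers summed to 460.0 CPM in the low-burden gate against 66.0 CPM in the members.

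Class II genes did not follow the interferon list here. Of 10 genes 3 were at least 2-fold lower and none higher, with H2-Aa at 5235 against 11920 CPM, a log2 ratio of -1.19 (-1.24 to -1.14), and Cd74 at 14250 against 26780 CPM, whereas Ciita was at 26.3 and 22.4 CPM with an interval that includes no change. The low-burden H2-Aa level was close to that of group 3 of the members, 11830 CPM. Apoe stood at 6108 against 18910 CPM, and 5 of 15 transcription factor genes were at least 2-fold lower and none higher.

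Glycolysis genes were at least 2-fold higher in 10 of 18 cases and lower in 1, with Gapdh at 1996 against 348.2 CPM and Ldha at 678.9 against 239.6 CPM. Lymphocytes moved the same way, with Gapdh higher by 1.15 on the log2 scale, against 2.52 in the gate. Spp1 stood at 1553 against 178.9 CPM, a log2 ratio of 3.12, and lymphocytes gave 2.30. The part of free RNA in these differences was not tested. At least 2-fold higher were also 3 of 14 lipid, 4 of 11 inflammatory, 3 of 9 T cell regulation, 3 of 20 repair, 1 of 8 iron, 1 of 22 lysosomal, 2 of 14 receptor and 1 of 14 complement genes, and lower were 3, 1, 0, 5, 1, 0, 2 and 3 of them. Markers of other cells moved with this comparison and were higher in the low-burden gate, and their part was not tested. Epithelial markers summed to 9258 CPM there and 2623 CPM in the members, alveolar macrophage markers to 763.5 and 185.2 CPM and neutrophil markers to 795.5 and 271.6 CPM. Endothelial markers summed to 571.9 and 168.1 CPM and fibroblast and mural markers to 469.6 and 159.9 CPM.

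**Figure D3:**
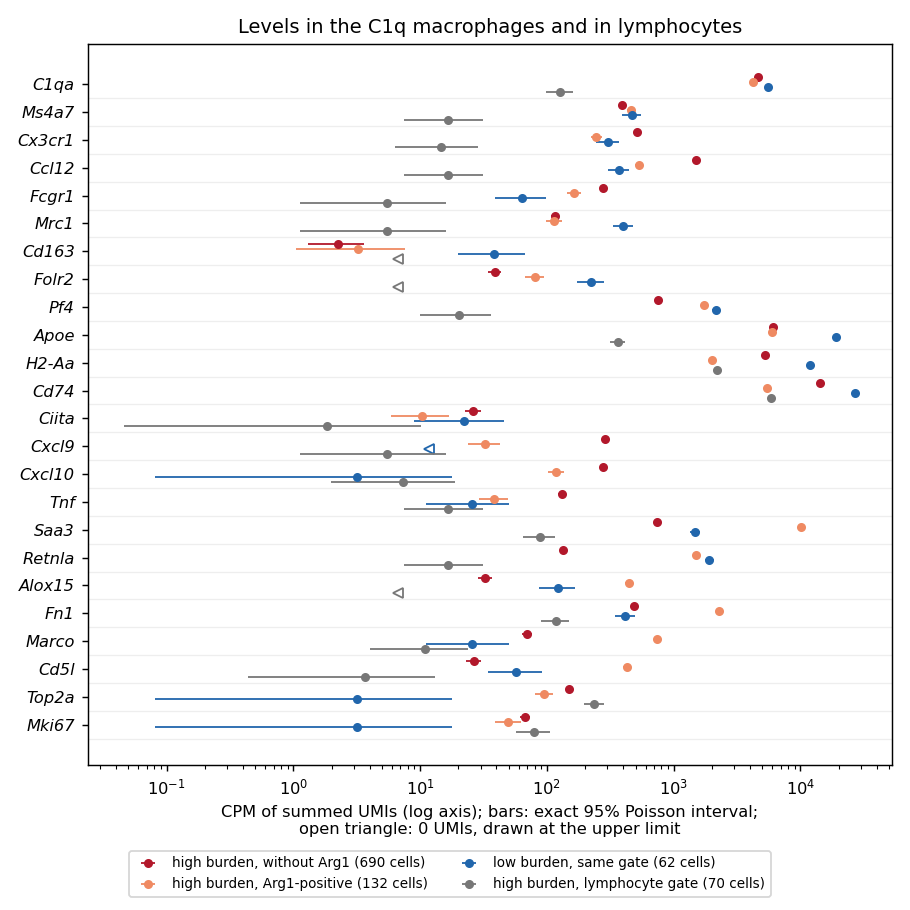
Level of 24 genes (rows) in CPM on a log axis, in C1q macrophages without Arg1 of the high-burden lung (dark red), Arg1-positive C1q macrophages (orange), low-burden cells of the same gate (blue) and high-burden lymphocytes (grey), with exact 95% Poisson intervals. Cxcl9 and Cxcl10 are highest in the dark red points, Saa3, Alox15 and Marco are highest in the orange points, and Mrc1, Folr2, Apoe and H2-Aa are highest in the blue points.

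Transcripts of dividing cells were scored per cell, after thinning each cell to 3000 UMIs so that depth was equal. At least 5 UMIs of 16 cell division genes were found in 199 of 690 members, 28.8% (25.5 to 32.4), and in 21.2% (14.6 to 29.2) of the Arg1-positive cells, whose interval overlaps that of the members. In the low-burden gate 1 of 54 cells passed, 1.85% (0.05 to 9.89). Free RNA from the carcinoma cells, of which 46.6% passed, may reach other droplets. High-burden endothelial cells at the same depth gave 8.02% (4.74 to 12.5), against 4.96% in the low-burden library. High-burden lymphocytes gave 35.7% (24.6 to 48.1), an interval that overlaps that of the members, and low-burden lymphocytes 10.1%. The share of members thus lay above the endothelial share and not above the lymphocyte share, and the parts of free RNA and of dividing cells in these shares were not tested. Without thinning, 60.3% of members and 58.5% of high-burden endothelial cells passed, so the unthinned share says little. Division transcripts were concentrated in group 2, where the list summed to 3261 CPM against 350.9 to 917.7 CPM in the other groups. Against the low-burden gate 14 of 16 genes of the list were at least 2-fold higher in the members, with a median log2 ratio of 2.28. High-burden cells alone could carry these genes past the filter, and several had 1 low-burden UMI, so this count is a description only.

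**Figure D4:**
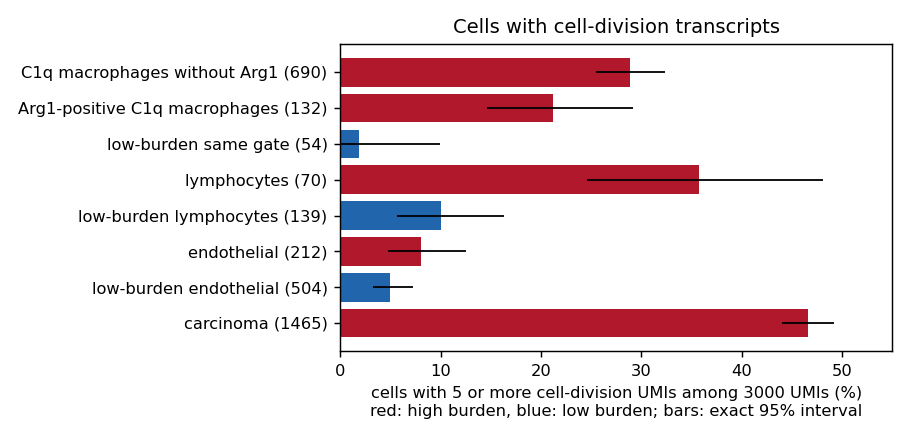
Share of cells (x axis, %) with at least 5 UMIs of 16 cell division genes after thinning each cell to 3000 UMIs, by gate (rows, number of cells in parentheses), in the high-burden (red) and low-burden (blue) library, with exact 95% intervals. The members, at 28.8%, lie above the low-burden cells of the same gate, at 1.85%, and above endothelial cells, at 8.02%, and below lymphocytes, at 35.7%, and carcinoma cells, at 46.6%.

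Alveolar macrophages of the low-burden lung (545 cells) served as a comparison with the resident macrophages of the airspace, in which library and cell type differ together. Of 7306 genes, 907 were at least 2-fold higher in the members, 12.4%, and 1142 lower, 15.6%. Under median-of-ratios scaling, where the median log2 CPM ratio over genes was -0.27, this split turned to 1334 higher and 755 lower. Ccl12 stood at 1492 CPM in the members against 3 UMIs, or 1.52 CPM, in the alveolar macrophages, a log2 ratio of 9.94 (8.39 to 12.2), and with the 3 C1q genes, Ccl8, C3ar1, Saa3, Cxcl9, Fcrls and Fcna it formed the 10 highest. The eosinophil-associated ribonuclease genes Ear2 and Ear1 stood at 13.7 against 7324 and 6.18 against 3554 CPM, and the chitinase-like gene Chil3 at 14.5 against 5086 CPM. Ear6, Ang5, Slc39a2, Ear10, Ang4, Rab44 and Fabp1 completed the 10 lowest. Ear1, Ear2 and Fabp1 helped to choose the alveolar macrophages, and the C1q genes helped to choose both sides. The differences in these genes were set by the gates and are a description only. All 10 class II genes were at least 2-fold higher in the members, with a median of 2.96, as were 13 of 17 chemokine and 11 of 12 interferon genes, while 12 of 18 lipid handling genes were at least 2-fold lower, Lpl at 62.7 against 1197 CPM among them.

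Monocytes of the high-burden lung were sought with Csf1r, Plac8, Ly6c2, Ace and Treml4, but the 49 cells found went against that label, with the fibroblast gene Dcn at 1579 CPM, and 17 of them met the endothelial gate and 4 the lymphocyte gate. Against these cells 695 of 8065 genes were at least 2-fold higher in the members, 8.62%, and 1220 lower, 15.1%. All 8 general macrophage markers were at least 2-fold higher in the members, as were Fcrls at 206.8 CPM against 1 UMI, Ms4a7 at 391.5 against 19.1 CPM and 12 of 22 lysosomal genes. Lower in the members were all 6 endothelial and all 8 fibroblast and mural markers, Dcn, Igfbp5 and Aldh1a2 among the lowest genes, and 8 of 13 interferon genes. Without the cells at the lymphocyte or endothelial gate, an alternative chosen after seeing the data, 823 genes were higher and 788 lower.

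Against the 746 high-burden cells outside both the C1q and the carcinoma gate, the genes with the highest ratios that the gate had not used were Ccl12 with a log2 ratio of 4.98, Cx3cr1 with 4.79, Ccl8, the purinergic receptor gene P2ry13, Ms4a7 with 4.37, Lilra5, Gbp2b, Hpgds, Ccdc106, Folr2, Fcrls, Fcgr1 with 3.92, the sialic acid receptor gene Siglec1, 1810011H11Rik, Gpr84, Msr1 and C3ar1 with 3.81. These values describe how the members stood apart within their own lung.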

How the data were processed

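Single-cell RNA was measured by droplet sequencing (10x Genomics) in 1 lung per group. The deposited values are raw counts of UMIs per gene and cell, which the authors made per library with Cell Ranger 2.0.2 on mm10 with the PYMT sequence appended. The submitters' processing notes also name Seurat. The study's methods also describe combining both libraries with the aggregation step of Cell Ranger, and whether the deposited counts were taken before or after it was not given in the sources used here. No values were normalized in the files.

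Cells were kept if they held 1000 to 7000 genes and if mitochondrial transcripts made up no more than 10% of UMIs, as in the study, and no doublet caller was run. Classes were gated on summed UMIs per 10000 (lymphocytes 6 of Cd3d, Cd3e, Cd3g, Cd79a, Cd79b and Ms4a1, endothelial cells 10 of Cldn5, Cdh5, Pecam1 and Ptprb, alveolar macrophages 15 of Ear1, Ear2, Krt79, Fabp1, Plet1 and Marco, monocytes a Csf1r UMI and 6 of Plac8, Ly6c2, Ace and Treml4, each with C1q under 15). The monocyte, lymphocyte and endothelial gates also required carcinoma genes under 6. The members and gene lists were chosen with earlier results of these data known, and Itgam, Clec7a, Apoc2, Trac and Ighm were not analysed here. A few genes counted in the lists are not reported here by name.

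UMIs were summed over the cells of a gate and scaled to CPM. Levels carry exact Poisson, log2 ratios exact conditional binomial and shares exact Clopper-Pearson intervals. With 1 library per group no test was made. Genes needed 50 UMIs over both sums and 10% of cells of either gate, and a gene was called at 2-fold. A gene at 0 UMIs was set to 3 counts over the gate. Named were the 10 highest and 10 lowest ratios per comparison without mitochondrial, ribosomal and Gm-numbered genes, all markers, up to 5 genes per list by level or ratio, the 15 most variable genes and the 20 highest ratios against other cells. Some genes named for groups of members or without the Saa3 cells were chosen after their values were seen.

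Members were clustered on log-normalised counts of the 1000 most variable genes, without the gate's genes, with 10 principal components and Leiden on 15 neighbors at resolution 0.5. Of 83 gene identifiers 82 were matched to GENCODE M21 for positions. Python 3.11.15, numpy 2.4.6, scipy 1.17.1, pandas 2.3.3, scanpy 1.11.5, igraph 0.11.9 and matplotlib 3.10.9 were used, and the scripts were tested on simulated data.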

Additional observations from a re-analysis of the deposited data

Results flagged for a closer look

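Barcodes outside the cell filter were not part of any comparison. In the high-burden library 7 of the 88 removed barcodes met the C1q, carcinoma-gene and Arg1 limits of the members, all of them removed for a mitochondrial share over 10%, against 0 of 195 removed barcodes in the low-burden library.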

How the results depend on the processing

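The number of members ranged from 638 to 697 under other C1q and carcinoma-gene limits, without the cell filter and after thinning. Leaving out cells with 2 or more UMIs of other lineages left 0 members, so that alternative gave no value. Genes at least 2-fold apart numbered 424 against Arg1-positive cells, 1878 against the low-burden gate, 1915 against the monocyte gate and 2049 against low-burden alveolar macrophages. The cells of the monocyte gate went against that label, as described above. A minimum of 10 UMIs with no limit on the share of cells gave 1392, 4350, 3884 and 4267. Thinning to 3000 UMIs gave 975 against the low-burden gate and 1302 against alveolar macrophages, and a minimum of 300 UMIs, chosen after seeing the data, 647 against the low-burden gate. The cause was not tested.

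Of 3431 recomputed values for 492 gene ratios, 3061 stayed within the counting interval of the reported value and 356 moved beyond it. Signs turned in 14. Without the cells of the Saa3 program, chosen after seeing the data, these were Alox15 (0.21, one of the genes that picked those cells), Retnla (0.35), C4b (0.23), Timd4 (0.11), Marco (0.28), Fabp4 (0.25) and Cxcl13 (2.83) against Arg1-positive cells and C4b (0.0076) against the low-burden gate. After thinning they were Mertk (0.16), Usp18 (-0.45) and Siglec1 (-0.17) against the low-burden gate. Without cells at the lymphocyte or endothelial gate, also chosen after seeing the data, they were Cd36 (1.06), Pdgfb (0.61) and Hilpda (0.46) against the monocyte gate. The median of the alternative activation list against alveolar macrophages went from 2.89 to -0.995 after thinning. The split against the monocyte gate, 695 higher and 1220 lower, became 806 and 1080 under median-of-ratios scaling, where the median log2 CPM ratio was -0.10.

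No paired analysis was possible because each group holds 1 library. The low-burden gate, with 62 cells and 313014 UMIs, limits the comparison between libraries, where 1 UMI already sets the level of a rare gene. The Arg1 limit depends on depth, and restricting the comparison to cells of 8000 to 20000 UMIs left 518 members and 110 Arg1-positive cells, with 208 genes higher and 245 lower.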
